A study of Mus musculus with 6 samples.

Results

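The 9 genes described here, Itga6, Itgb4, Col17a1, Dst, Plec, Itga3, Itgb1, Lama3 and Lamb3, encode parts of the apparatus that fastens the basal cells of an epithelium to its basement membrane. They were chosen by name, as the rows of the count table whose Ensembl identifiers carry these symbols, and are 9 of the 25006 genes in the table. All 9 passed the filter on low counts, which kept 12847 genes, and the smallest count of any of them in a library was 1778. The data are RNA sequencing counts from corneal epithelial sheets of mice, with 3 libraries labelled wild type and 3 labelled EphA2 null (EphA2-/- in the series design text). The labels give no age, sex, strain or allele, and they do not say whether the samples come from separate animals. EphA2 is a receptor tyrosine kinase for ephrin-A ligands, and the series title places the comparison in work on cilia, autophagy and the architecture of this epithelium.

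A hemidesmosome is a junction on the underside of a basal epithelial cell. Its core is the integrin formed by the alpha6 and beta4 chains, which holds laminin-332 outside the cell and the plaque protein plectin inside it. Collagen XVII, a transmembrane collagen, and BP230, the epithelial product of the dystonin gene Dst, complete the stable form and link it to keratin filaments. The integrin formed by alpha3 and beta1 binds the same laminin outside hemidesmosomes, at contacts coupled to actin. In the cornea these junctions keep the epithelium on the stroma, and loss of their components in patients gives blistering of skin and cornea.

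The targeted gene was not lower in the libraries labelled null. The libraries are named wild type 1 to 3 and null-labelled 1 to 3, and levels are in CPM (counts scaled to a common library size, with TMM factors). Epha2 stood at 298, 253 and 563 CPM across wild type 1 to 3, and at 285, 653 and 578 CPM across null-labelled 1 to 3 (log2 fold change 0.44 ± 0.39, SE, n = 3 per group; adjusted p = 0.9996, edgeR). The labels do not say which part of the gene the allele affects, and a null allele can leave a transcript, so these counts do not check the label. Every direction by genotype rests on it. Each sample title carries a number and a letter, and the letter differs between samples that share a number. The number is from a lower range in wild type 1 and 2 and null-labelled 1. It is from a higher range in the other 3 libraries. The labels do not say what the number or the letter stands for. Earlier work on this table had shown that the libraries separate by the number, so each of the 9 genes is given for both divisions. The title number division is a description of the libraries, not a contrast of the study. Epha2 itself was higher with the higher title numbers (log2 fold change 1.07 ± 0.11, SE; adjusted p = 0.00174, edgeR). With the title number range as a second term, its genotype difference was 0.09 ± 0.11. Wild type 1 and 2 share a number, as do null-labelled 2 and 3, so that p-values measure only how these samples vary, and that variation may be technical. Library totals ran from 15308013 to 27586942 counts, of which the 9 genes took between 0.490% and 0.80%.

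The tissue label fits its keratins, with Krt5, the basal keratin, at a mean of 26975 CPM over the 6 libraries. Basal keratins Krt5, Krt14 and Krt15 summed to between 28663 and 36944 CPM. The 9 keratocyte markers together reached at most 1.82 CPM, with Kera and Lum at 0 in all libraries, and the 5 vessel markers at most 1.38 CPM, with Kdr and Emcn at 0. Integrin and laminin genes are also used by stromal and vessel cells, and these marker levels were close to 0.

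By genotype, 0 of the 9 genes passed the test against the spread between libraries. edgeR called 0 of 9, as did DESeq2 and limma voom, and at an unadjusted p under 0.05 edgeR gave 0 as well. Over all tested genes edgeR called 1, or 0.00778%, DESeq2 called 0.0467%, and edgeR gave an unadjusted p under 0.05 for 1.18%. The log2 fold changes, libraries labelled EphA2 null over wild type, were above 0 for 8 genes and below 0 for Dst, with a median of 0.15 against 0.01 over all tested genes. With the title number range as a second term the direction turned, and 8 of the 9 were below 0, with a median of -0.08 and 0 called (0 also at an unadjusted p under 0.05). Wild type and null-labelled libraries overlapped for all 9 genes, where over all tested genes 3.73% had no overlap.

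By title number, 6 of the 9 genes were higher in the libraries with the higher numbers, by 1.47-fold to 2.30-fold: Itga6, Itgb4, Col17a1, Plec, Itga3 and Lama3. Over all tested genes edgeR called 24.6% higher and 20.1% lower in this division, 44.7% together. For Dst, Itgb1 and Lamb3 the difference did not pass. Without null-labelled 1, 3 of the 9 genes were called higher, and 6.53% of all tested genes. The median of the 9 genes was 0.60 on the log2 scale against -0.01 over all tested genes. With library totals in place of TMM factors that overall median was -0.13, and the genes called higher and lower changed from 3154 and 2586 to 2449 and 3667. The 6 genes also did not overlap between the title numbers, where 30.1% of all tested genes were separated in the same direction and 28.8% in the opposite one.

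**Figure D1:**
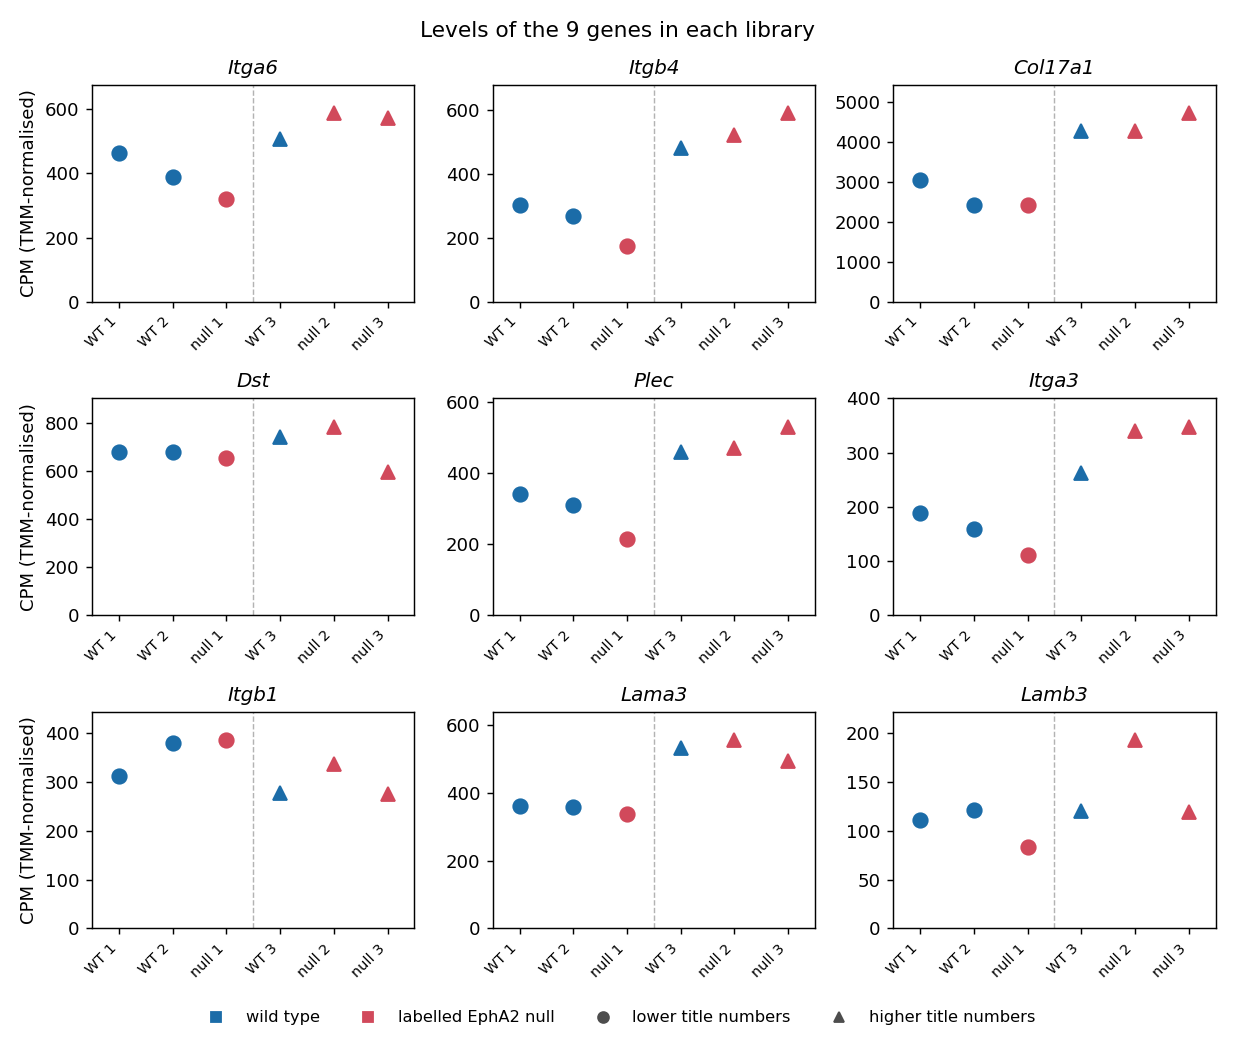
Level of each of the 9 genes in each library, in CPM with TMM scaling on an axis from 0. Circles are libraries with lower and triangles libraries with higher title numbers, blue is wild type and red is labelled EphA2 null. For Itga6, Itgb4, Col17a1, Plec, Itga3 and Lama3 all triangles lie above all circles, while red and blue symbols are mixed for every gene.

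Itgb4 (ENSMUSG00000020758, chromosome 11, 115974709 to 116008412 in GRCm38) encodes the beta4 chain, which has an unusually long cytoplasmic tail that binds plectin. Of its exon sequence 7.66% overlaps a long noncoding RNA gene on the opposite strand, B230344G16Rik, and since the strand setting of the counts is not known, reads there cannot be told apart. Its level was 304, 270 and 481 CPM across wild type 1 to 3, and 176, 523 and 590 CPM across null-labelled 1 to 3. The 3 libraries with higher title numbers were the 3 highest, and null-labelled 1 was the lowest. The mean was 352 ± 113 CPM in wild type and 430 ± 222 CPM in the null-labelled libraries (SD, n = 3 each), against 250 ± 66.4 CPM with lower and 531 ± 54.9 CPM with higher title numbers. By genotype the log2 fold change was 0.29 ± 0.44 (SE; 95% interval -0.74 to 1.32; adjusted p = 0.9996, edgeR), an interval that spans 0 widely. With the title number range as a second term it was -0.25 ± 0.19. Between the title numbers it was 1.20 ± 0.20 (SE; adjusted p = 0.00304, edgeR), the largest of the 9, and 0.74 (adjusted p = 0.0326, edgeR) without null-labelled 1.

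Itga6 (ENSMUSG00000027111, chromosome 2, 71745616 to 71858416) encodes alpha6, the partner of beta4 in hemidesmosomes. It stood at 464, 388 and 508 CPM across wild type 1 to 3, and at 321, 587 and 571 CPM across null-labelled 1 to 3. The order of the libraries was close to that of Itgb4, with null-labelled 1 again lowest, over a narrower span. By genotype the log2 fold change was 0.12 ± 0.25 (SE; 95% interval -0.45 to 0.70; adjusted p = 0.9996, edgeR). Between the title numbers it was 0.55 ± 0.15 (adjusted p = 0.0179, edgeR), a call that was lost without null-labelled 1 (0.25, adjusted p = 0.307) and without wild type 2 (0.51, adjusted p = 0.0718). Without wild type 3 it was 0.84.

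Col17a1 (ENSMUSG00000025064, chromosome 19, 47646344 to 47692094) encodes collagen XVII. It was the most abundant of the 9 genes in every library and ranked 19 among all genes by mean CPM. Its level was 3037, 2426 and 4279 CPM across wild type 1 to 3, and 2412, 4264 and 4715 CPM across null-labelled 1 to 3. Wild type 3 stood with null-labelled 2 and 3, and the other 3 libraries lay below. The mean was 3247 ± 944 CPM in wild type and 3797 ± 1220 CPM in the null-labelled libraries (SD, n = 3 each), against 2625 ± 357 and 4419 ± 256 CPM with lower and higher title numbers. By genotype the log2 fold change was 0.23 ± 0.30 (SE; 95% interval -0.48 to 0.93; adjusted p = 0.9996, edgeR), and between the title numbers 0.77 ± 0.14 (adjusted p = 0.00390, edgeR). Without null-labelled 1 the title number difference was 0.64 and did not pass (adjusted p = 0.0715).

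The 2 plaque genes took different courses. Plec (ENSMUSG00000022565, chromosome 15, 76170974 to 76232574) encodes plectin, the linker between beta4 and keratin, and stood at 339, 308 and 458 CPM across wild type 1 to 3. Across null-labelled 1 to 3 it stood at 213, 470 and 530 CPM. This is the same arrangement as for Itgb4, and over the 6 libraries the log2 levels of Plec and Itgb4 had a Pearson r of 0.996. The title number difference of Plec was 0.87 ± 0.16 (SE; adjusted p = 0.00479, edgeR), and 0.50 without null-labelled 1, where it did not pass (adjusted p = 0.0705). By genotype it was 0.13 ± 0.33 (adjusted p = 0.9996, edgeR).

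Dst (ENSMUSG00000026131, chromosome 1, 33908225 to 34308661) stood at 680, 680 and 741 CPM across wild type 1 to 3, and at 654, 785 and 594 CPM across null-labelled 1 to 3. It varied least of the 9 genes, with a coefficient of variation of 9.67% over the 6 libraries against 41.9% for Itgb4. Its highest and lowest libraries were both of higher title number and both labelled EphA2 null. Neither division gave a difference past the test, with -0.05 ± 0.15 by genotype (SE; 95% interval -0.39 to 0.29; adjusted p = 0.9996) and 0.10 ± 0.12 by title number (95% interval -0.18 to 0.38; adjusted p = 0.526, edgeR). The gene has 20 annotated transcripts, among them short epithelial and long neuronal and muscle forms, and the counts are summed over all of them, so BP230 itself was not measured apart.

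The 2 chains of the alpha3 beta1 integrin also parted. Itga3 (ENSMUSG00000001507, chromosome 11, 95044474 to 95076801) encodes alpha3, which sets the preference for laminin-332, and stood at 189, 158 and 262 CPM across wild type 1 to 3, and at 111, 340 and 348 CPM across null-labelled 1 to 3. The lowest and the 2 highest libraries were thus all labelled EphA2 null. By genotype the log2 fold change was 0.39 ± 0.42 (SE; 95% interval -0.59 to 1.37; adjusted p = 0.9996, edgeR), the largest of the 9 and below its own error. By title number it was 1.11 ± 0.21 (adjusted p = 0.00505, edgeR), and 0.59 (adjusted p = 0.0478) without null-labelled 1.

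Itgb1 (ENSMUSG00000025809, chromosome 8, 128685654 to 128733200) encodes beta1, the chain shared by many matrix receptors. Its levels were 311, 378 and 277 CPM across wild type 1 to 3, and 386, 337 and 275 CPM across null-labelled 1 to 3. The 2 highest libraries had lower and the 2 lowest had higher title numbers, the reverse of Itga3, with some overlap. The title number difference was -0.32 ± 0.12 (SE; 95% interval -0.59 to -0.05) and did not pass (adjusted p = 0.0537, edgeR), while DESeq2 called it (-0.32, adjusted p = 0.0290). In edgeR it passed without wild type 1 (-0.38, adjusted p = 0.0378) and without null-labelled 2 (-0.39, adjusted p = 0.0270). By genotype it was 0.05 ± 0.18 (adjusted p = 0.9996, edgeR).

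Start-site sequences are shown for 3 of the 9 genes, since Col17a1 and Itga3 rose with the higher title numbers and Itgb1, the partner of Itga3, did not. Each run holds 250 bases before and 50 after an annotated start, from RefSeq on GRCm38.p6 and read 5′ to 3′ on the gene's strand. Windows were present for 5 of the 9 genes. Capitals mark the motifs searched on both strands: the TATA box was searched as TATAAA, the GC box as GGGCGG, the CACCC box as GGGTGG, the AP-1 motif as TGANTCA and the E-box as CACGTG.
Col17a1, chr19:47691993-47692292, minus strand: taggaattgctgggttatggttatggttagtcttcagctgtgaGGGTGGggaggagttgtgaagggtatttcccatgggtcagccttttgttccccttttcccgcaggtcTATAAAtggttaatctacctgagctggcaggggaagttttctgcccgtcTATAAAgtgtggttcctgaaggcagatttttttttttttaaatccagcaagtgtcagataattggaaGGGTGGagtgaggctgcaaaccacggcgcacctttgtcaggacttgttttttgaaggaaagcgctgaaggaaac
Itga3, chr11:95076665-95076964, minus strand: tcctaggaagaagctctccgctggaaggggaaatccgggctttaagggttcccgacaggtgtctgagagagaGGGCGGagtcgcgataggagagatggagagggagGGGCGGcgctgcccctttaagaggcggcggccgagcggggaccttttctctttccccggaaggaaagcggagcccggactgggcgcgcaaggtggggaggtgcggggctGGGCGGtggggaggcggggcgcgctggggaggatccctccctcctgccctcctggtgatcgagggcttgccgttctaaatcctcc
Itgb1, chr8:128685404-128685703, plus strand: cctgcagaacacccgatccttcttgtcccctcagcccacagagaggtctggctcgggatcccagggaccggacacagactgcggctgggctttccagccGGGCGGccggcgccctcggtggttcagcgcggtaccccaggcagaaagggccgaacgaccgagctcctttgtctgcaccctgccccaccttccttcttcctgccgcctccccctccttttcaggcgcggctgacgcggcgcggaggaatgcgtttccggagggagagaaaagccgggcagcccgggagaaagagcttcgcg
The Col17a1 window is 46.3% GC and holds TATAAA beginning 140 and 91 bases before the start and GGGTGG beginning 207 and 24 bases before it. The Itga3 window shown is 66.7% GC with GGGCGG beginning 178, 144 and 35 bases before the start, and the Itgb1 window is 67.3% GC with 1 GGGCGG, 151 bases before. A second Itga3 window, at an internal start and not shown, is 52.3% GC and holds 1 GGGCGG and 1 TGANTCA, the 1 AP-1 match in the windows of the 5 genes. Among all 32851 windows of this length in the table, 13.6% hold TATAAA, 35.7% GGGCGG, 31.5% GGGTGG, 7.81% TGANTCA and 7.15% CACGTG. The GC box was present in 4 of the 8 windows of the 5 genes, among them those shown of Itga3 and Itgb1 but not that of Col17a1. A match describes letters, not a used site, and any relation of the motifs to the levels was not tested.

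The ligand side is laminin-332, and both of its chains among the 9 genes are given here. Lama3 (ENSMUSG00000024421, chromosome 18, 12333819 to 12583013) encodes the alpha3 chain, which carries the site that integrins bind, and stood at 361, 357 and 531 CPM across wild type 1 to 3. Across null-labelled 1 to 3 it stood at 338, 556 and 495 CPM. Its levels were tight within each title number range, and the difference of 0.60 ± 0.09 between them (SE; adjusted p = 0.00260, edgeR) had the smallest p of the 9. It kept its call without each library in turn. By genotype Lama3 was at 0.15 ± 0.24 (adjusted p = 0.9996, edgeR).

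Lamb3 (ENSMUSG00000026639, chromosome 1, 193207699 to 193343878) encodes the beta3 chain and was at 111, 121 and 120 CPM across wild type 1 to 3, and at 83.6, 193 and 119 CPM across null-labelled 1 to 3. The wild type libraries were nearly level, and the null-labelled libraries held both the highest and the lowest value. The title number difference, 0.48 ± 0.23 (SE; adjusted p = 0.125, edgeR), did not pass. It was 0.05 without null-labelled 1 and 0.26 without null-labelled 2, and it passed without wild type 3 (0.89, adjusted p = 0.0333). By genotype the log2 fold change was 0.17 ± 0.28 (adjusted p = 0.9996, edgeR).

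**Figure D2:**
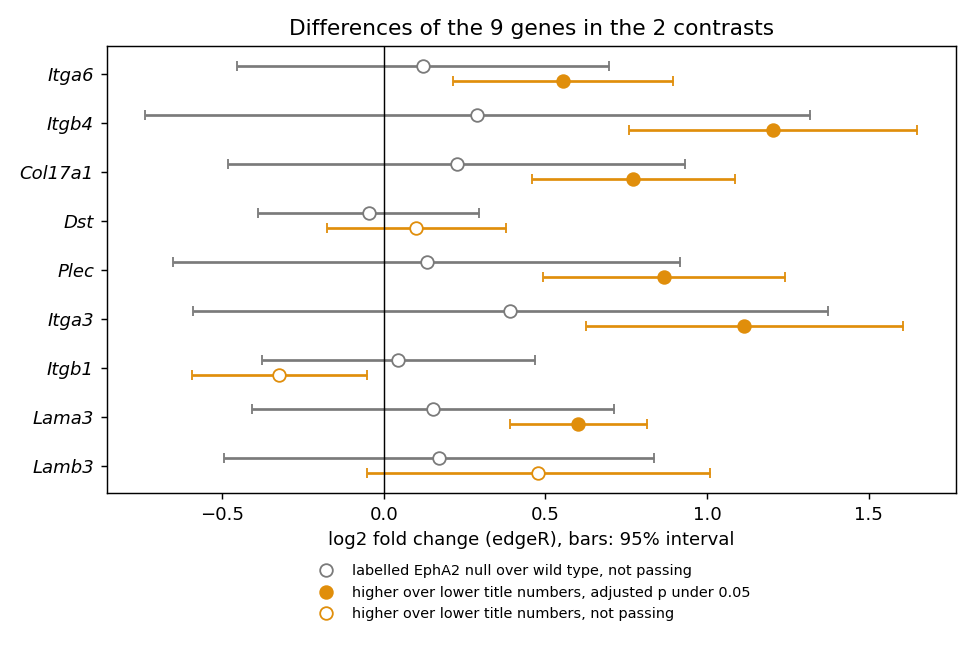
Log2 fold change of each of the 9 genes from edgeR, grey for the null-labelled libraries over wild type and orange for higher over lower title numbers, with bars for the 95% interval and filled points for an adjusted p under 0.05. All grey intervals span 0, and the 6 filled orange points lie between 0.55 and 1.20.

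Levels can be set side by side between genes only per length. On mean CPM per kb of annotated exon, Col17a1 came first with 586 ± 170 (SD over the 6 libraries), followed by Itgb1 with 80.2 ± 11.8, Itgb4 with 55.7 ± 23.3 and Itga6 with 52.4 ± 11.6. Itga3 had 41.1 ± 17.2, Lama3 40.9 ± 9.16, Plec 21.3 ± 6.59, Lamb3 18.8 ± 5.5 and Dst 16.7 ± 1.62 CPM per kb. Col17a1 exceeded Itgb1 in 6 of 6 libraries, Itga6 exceeded Itga3 in 6 and Lama3 exceeded Plec in 6. The order was not fixed elsewhere: Itgb1 exceeded Itgb4 in 4 of 6 libraries, Itgb4 exceeded Itga6 in 3, Itga3 exceeded Lama3 in 2, Plec exceeded Lamb3 in 3 and Lamb3 exceeded Dst in 5. The order also depends on the length used. Per kb of the longest coding transcript, Itga6 came second with 110, above Itgb1 with 85.8, and Dst with 29.6 came above Lamb3 with 25.6 and Plec with 25.0.

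Partner genes were then compared within a library, where library size cancels. The ratio of Itga6 to Itgb4 per kb of exon was 1.19, 1.12 and 0.820 across wild type 1 to 3, and 1.42, 0.872 and 0.752 across null-labelled 1 to 3. On this length Itga6 was ahead in each library of lower and behind in each library of higher title number. Per kb of the longest coding transcript the ratio ran from 1.39 to 2.63, with Itga6 ahead in all 6 libraries, so which partner is ahead depends on the length used. Itga3 to Itgb1 had the widest span, at 0.434, 0.299 and 0.676 across wild type 1 to 3, and 0.205, 0.721 and 0.905 across null-labelled 1 to 3. Beta1 transcripts exceeded alpha3 transcripts per kb in all 6, and the ratio was 1.35 higher on the log2 scale with the higher title numbers.

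The laminin ratio did not separate the libraries in either way. Lama3 to Lamb3 ran from 1.77 to 2.72 with a median of 2.25. The ratio of Dst to Plec ran from 0.881 to 1.35 with lower and from 0.494 to 0.735 with higher title numbers. Col17a1 to Itgb4 ran from 10.5 to 16 and from 9.33 to 10.4, null-labelled 1 being the highest. By genotype the 5 log2 ratios differed by between -0.10 and 0.20, with exact two-sided permutation p of at least 0.8 (all 1 after Benjamini-Hochberg adjustment over the 5), in a design of 3 against 3 that cannot go below 0.1. Within the lower title numbers, with null-labelled 1 alone against 2 wild type libraries, the differences were -0.81 for Itga3 to Itgb1, 0.55 for Dst to Plec, 0.53 for Col17a1 to Itgb4, 0.38 for Lama3 to Lamb3 and 0.30 for Itga6 to Itgb4. Within the higher ones they were 0.26, -0.24, -0.14, -0.36 and -0.02 in the same order.

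**Figure D3:**
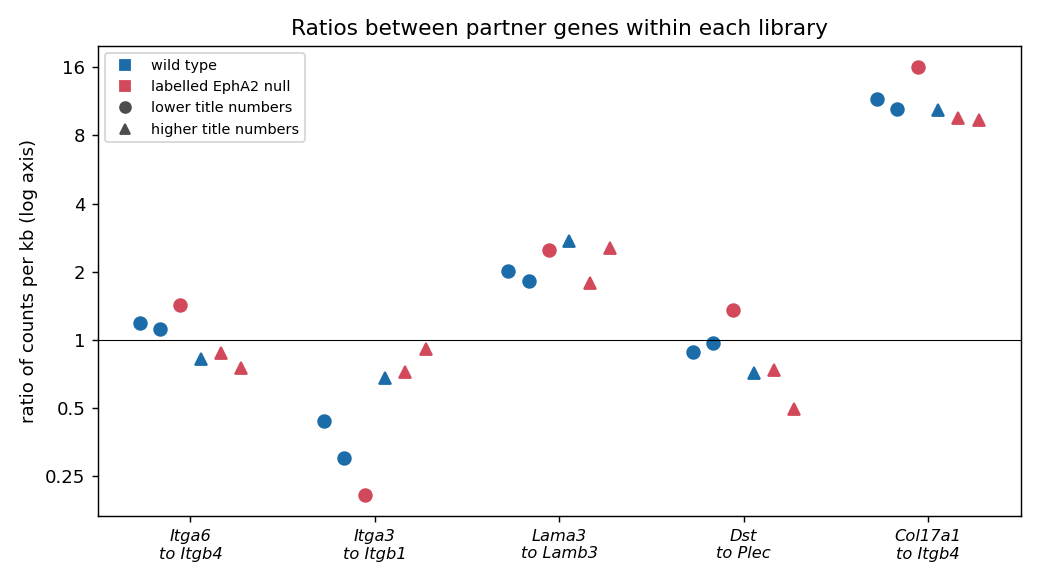
Ratio of counts per kb of annotated exon between partner genes within each library, on a log axis, with circles for lower and triangles for higher title numbers, blue for wild type and red for labelled EphA2 null. Itga3 to Itgb1 runs from 0.205 to 0.905 with all triangles above all circles, and Itga6 to Itgb4 has all triangles below all circles.

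Over the 6 libraries the genes that passed by title number followed each other closely. Among the 6, the 15 pairwise Pearson correlations of log2 CPM ran from 0.873 to 0.996. Itgb1 ran against all 6, with r from -0.845 to -0.657, and Dst was related to none of the 9 by more than 0.634. These values are across 6 libraries in 2 sets by title number and mostly restate that division. Of 8839 other genes averaging 10 CPM or more, those most like Itgb4 were Stk11 and Map2k2 with r of 0.9998 each, then Atp13a1, Polr3d and Rfng, with Plec in place 21. Those most like Col17a1 were Scd2, Spata2, Grhl2, Traf7 and Golga2, with r from 0.9991 to 0.9995, and Itgb4 was in place 1362.

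Base composition moved with the title number difference. GC content was taken from the longest coding transcript of each gene. In the decile of tested genes with the lowest GC content the median title number difference was -0.38, and in the decile with the highest it was 0.47, where 48.2% of genes were called higher. Plec (61.3% GC), Itgb4 (60.0%), Itga3 (57.9%) and Col17a1 (57.0%) are GC-rich, while Itgb1 (44.8%), Itga6 (48.9%) and Dst (49.5%) are not. Lamb3 (55.6%), which did not pass by title number, and Lama3 (51.7%), which did, lie between. Over the 9 genes, GC content and the title number difference had a Pearson r of 0.873, given as a description of genes from the same libraries. Over 12841 tested genes the Pearson r was 0.435. Against the median of genes of like GC content, Itgb4 was higher by 0.74, Itga3 by 0.74, Itga6 by 0.57, Lama3 by 0.55 and Col17a1 and Plec by 0.40 each, and Itgb1 was lower, at -0.12.

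With sample offsets by GC content in edgeR, the same 6 genes passed with smaller differences for Itgb4, Itga3, Plec and Col17a1. Over all tested genes this setting called 2520 higher, or 19.6%, and 1990 lower. Itgb4 went to 0.76 (adjusted p = 0.00762), Itga3 to 0.74 (adjusted p = 0.0166), Plec to 0.42 (adjusted p = 0.0298) and Col17a1 to 0.40 (adjusted p = 0.0349). Itga6 stood at 0.56 (adjusted p = 0.0240) and Lama3 at 0.50 (adjusted p = 0.00562). Itgb1 went to -0.12 (adjusted p = 0.395) and Lamb3 to 0.25 (adjusted p = 0.445).

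**Figure D4:**
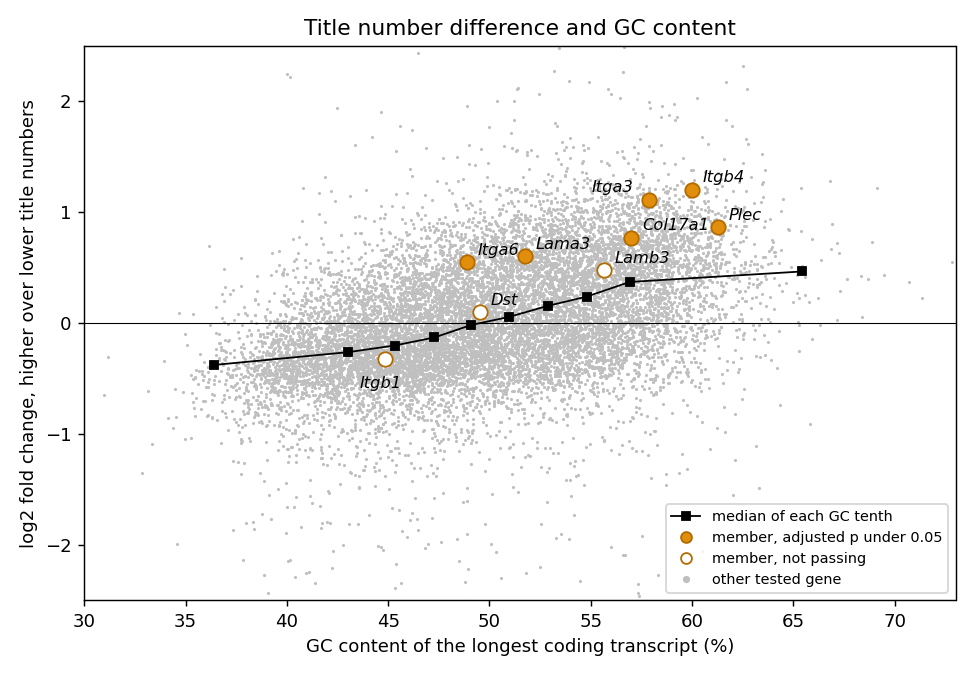
Log2 fold change of higher over lower title numbers against GC content of the longest coding transcript, for all tested genes (grey, 37 lie outside the axes) and the 9 genes (orange, filled where the adjusted p is under 0.05), with black squares for the median of each GC decile at the middle of its range. The medians climb from -0.38 to 0.47, and 8 of the 9 genes lie above the median of their decile.

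Markers of other cells also moved with the title numbers. The 14 leukocyte markers summed to 51.6 to 67.6 CPM with lower and 25.8 to 33.1 CPM with higher numbers. No marker was at 0 in all libraries. Of the 9 tested, 8 were lower with the higher numbers, where 20.1% of all tested genes were lower. Cd68 was the exception, at 21.7 to 26.4 CPM in every library (log2 fold change -0.09 ± 0.12, SE; adjusted p = 0.560, edgeR). It made up most of the sum with higher numbers. Muc5ac, the goblet cell mucin, was at 38.5, 5.24 and 58.8 CPM in wild type 1 and 2 and null-labelled 1, and at 0.675 to 2.21 CPM in the other 3. The 5 conjunctival markers with it summed to 4622 to 5974 CPM and 3118 to 5716 CPM. The 4 Schwann cell markers summed to 171 to 256 CPM and 287 to 387 CPM, nearly all from Mbp and Ngfr, with the defining marker Sox10 at 1 count or fewer in any library. Krt12, the corneal keratin, was at 13064 to 13824 and 15619 to 16025 CPM. The part of these shifts in the levels of the 9 genes was not tested, and in tissue RNA fewer cells of a type and less RNA per cell cannot be told apart.

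The genes around the hemidesmosome were described from lists. The anchoring partners are Cd151, a tetraspanin bound to laminin-binding integrins, Erbin, a scaffold that binds beta4, Krt5 and Krt14, the basal keratin pair, and Col7a1, the collagen of anchoring fibrils. By genotype, edgeR and DESeq2 each called 0 of the 5, of which 0 had an unadjusted p under 0.05, with log2 fold changes from -0.06 for Col7a1 to 0.07 for Krt5. By title number 1 was called, Col7a1 (0.62 ± 0.11, SE; adjusted p = 0.00371, edgeR), and Cd151 (-0.25), Erbin (0.07), Krt5 (0.30) and Krt14 (-0.29) did not pass in edgeR. DESeq2 called Krt5 as well (0.30, adjusted p = 0.0103), and without null-labelled 1 edgeR called 0 of the 5 higher. The number called lower was 0, but 1 with library totals and 2 without null-labelled 2. Over all tested genes edgeR called 24.6% higher and 20.1% lower.

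Of 21 other integrin genes 15 passed the filter on low counts and were tested. By genotype edgeR called 0, DESeq2 called 0 and an unadjusted p under 0.05 was seen for 0, the smallest p belonging to Itgb8 (-1.03 ± 0.81, SE) and Itga2b (0.16 ± 0.16). By title number 3 were higher and 3 lower, with a median of 0.06. These counts are near the 24.6% higher and 20.1% lower over all tested genes. Itgb5, a partner of alphaV, went from 57.3 to 104 CPM (0.86 ± 0.12; adjusted p = 0.00216), and 2 other partners of alphaV fell, Itgb6 from 51.2 to 35.7 CPM (-0.60 ± 0.11; adjusted p = 0.00445) and Itgb8 from 3.79 to 0.709 CPM (-2.29 ± 0.30; adjusted p = 0.00203, edgeR).

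Of 25 other basement membrane genes 19 passed the filter and were tested. By genotype edgeR called 0, DESeq2 called 0, and an unadjusted p under 0.05 was seen for 1, the collagen IV gene Col4a2 (-0.84 ± 0.27, SE; adjusted p = 0.9996, edgeR), at 3.01 CPM in wild type and 1.67 CPM in the null-labelled libraries, with Col4a1 at -1.0 ± 0.47. By title number 10 were higher and 2 lower, where 24.6% of all tested genes were higher and 20.1% lower. Nid1, which encodes the linker nidogen-1, went from 34.4 to 129 CPM (2.0 ± 0.21; adjusted p = 0.00174), Fras1, whose product anchors epithelia to the dermis in the embryo, from 44.3 to 93.3 CPM, and Lama5, the alpha chain of laminin-511, from 163 to 284 CPM (0.88 ± 0.12; adjusted p = 0.00198, edgeR).

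Actin-linked genes and the remaining receptors are read against the 24.6% of all tested genes that were higher and the 20.1% that were lower by title number. Of 26 focal adhesion genes 23 passed the filter and were tested. By genotype 0 were called in edgeR or DESeq2, with 0 at an unadjusted p under 0.05. Tns1 (-0.48 ± 0.25, SE) and Vcl (0.29 ± 0.19) had the smallest p. By title number 0 were lower and 15 were higher. Among them were the filamin gene Flna (0.68 ± 0.09), Git1 (1.13 ± 0.15) and the kinase gene Src (0.98 ± 0.14), each with an adjusted p of 0.00216 or less in edgeR. Of 6 other matrix receptors 0 were called by genotype with either tool and 0 reached an unadjusted p under 0.05 (Sdc4 0.21 ± 0.18 and Dag1 0.40 ± 0.47), and 4 were higher by title number, among them Dag1, the dystroglycan gene, from 88.4 to 203 CPM, Ddr1 from 202 to 341 CPM and Bcam, a receptor for laminin alpha5, from 151 to 205 CPM. Without null-labelled 1, 7 of the focal adhesion genes and 1 of these receptors were called higher.

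Of 16 genes of matrix processing 13 passed the filter and were tested. By genotype 0 were called in edgeR or DESeq2, with 0 at an unadjusted p under 0.05 (Plau 0.31 ± 0.20 and Adam9 0.15 ± 0.12, SE). By title number 5 were higher and 1 lower, against 24.6% and 20.1% of all tested genes. Furin, the protease that cleaves integrin alpha chains during maturation, went from 27.0 to 62.8 CPM (1.29 ± 0.21; adjusted p = 0.00299, edgeR). Mmp14, a membrane matrix metalloproteinase, went from 134 to 220 CPM, and Bmp1, which trims laminin-332 chains, from 16.4 to 23.2 CPM.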

How the data were processed

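The authors deposited 1 table of raw counts, whole numbers per Ensembl gene, for 6 mouse corneal epithelium samples; which aligner, counter, strand setting and build they used is not given in the sources used here. Columns were assigned to samples by title, and replicates are numbered in accession order. Symbols were found for 24942 of 25006 identifiers and gene models taken from GENCODE M21 (GRCm38). Of the exon sequence of Plec 1.13% overlaps Parp10, and Dst and Lama3 overlap noncoding genes on the opposite strand, from which reads cannot be told apart without strand. No 2 libraries of a genotype had counts within sampling noise (lowest chi-square over its degrees of freedom, 11.1).

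Counts were filtered with filterByExpr, scaled with TMM factors and tested over all 12847 genes with edgeR 4.0.16 (glmQLFit and glmQLFTest, R 4.3.3), with genotype alone, and for the title numbers with genotype as a second term. A call is an adjusted p under 0.05 after Benjamini-Hochberg. Each SE is the log2 fold change divided by the square root of F. Alternatives used DESeq2 1.42.0 and voom from limma 3.58.1, other filters and scalings, and each library left out. Simulated counts were used to test the edgeR step. In them the genotype comparison recovered 0% of 1.5-fold, 20% of 2-fold and 90% of 4-fold changes. The title number comparison recovered 34%, 80% and 96%. A gene not called by genotype may thus still differ by 2-fold. Larger differences are not excluded either, since not all 4-fold changes were recovered. Figures were drawn with matplotlib 3.10.9. Offsets are medians over 20 bins of GC content or exon length per library. Named genes are the 9, all anchoring partners, for each other list the 2 smallest p by genotype and up to 3 calls by title number, and the 5 most correlated with Itgb4 and with Col17a1. Muc5ac, Mbp, Ngfr, Sox10 and Cd68 were singled out from the marker lists after their values were seen. The 9 genes, the lists and the title number division were chosen with earlier results of these data known. A few genes of these lists are not reported here and were left out of the list counts, sums and ratios.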

Additional observations from a re-analysis of the deposited data

Results flagged for a closer look

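For 4 of the 9 genes the null-labelled libraries lay entirely below wild type among the lower title numbers and entirely above it among the higher ones. The share of all tested genes with this arrangement was not counted, so the 4 are not shown to differ from other genes in it. The log2 fold change, labelled EphA2 null over wild type, was -0.41 and 0.19 for Itga6 (lower minus higher title numbers, -0.59), -0.70 and 0.21 for Itgb4 (-0.91), -0.60 and 0.12 for Plec (-0.73) and -0.64 and 0.39 for Itga3 (-1.03). In an edgeR model with the interaction of genotype and title number, the unadjusted p was 0.0268 for Itga6, 0.00276 for Itgb4, 0.00836 for Plec and 0.00113 for Itga3, with an adjusted p of 0.999 for each and 0 of 12847 genes called (0.00%). These 4 genes were picked for their opposite directions, so their unadjusted p are a description. Wild type 3 is the 1 wild type library with a higher title number. Null-labelled 1, the 1 library of its label with a lower title number, was the lowest of the 6 libraries for 7 of the 9 genes. For Col17a1 this was by 2412 against 2426 CPM in wild type 2. How often this library was lowest over all tested genes was not counted. Groups of 3 are too small for the check on a sample far from the others.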

How the results depend on the processing

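By genotype, 0 of the 9 genes and 0 of the other list genes were called in either direction under each of 18 alternatives, and the smallest adjusted p of any of the 9 over them was 0.527. Between the title numbers, 6 of the 9 were higher, and between 3 (without null-labelled 1) and 7 with a library left out. The number lower was 0, but 1 (Itgb1) with library totals, DESeq2, no filter, a mean of at least 1 CPM, a threshold of 0.10 or samples of one title number summed, and 0 to 1 with a library left out (1 without wild type 1 or null-labelled 2). Genes higher in the other lists numbered 38, and 17 (without null-labelled 1) to 39 with a library left out. Genes lower numbered 6, and 2 (without null-labelled 1) to 9 (without null-labelled 2). Without null-labelled 1 only 6.53% of all genes were higher. Itga6, Col17a1 and Plec lost their call without that library. Lamb3 passed with no filter (0.45) and without wild type 3 (0.89).

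Some genotype differences in log2 ratio moved within a title number range by more than the SD pooled over the genotypes (0.298 to 0.916 by ratio). Within the lower numbers it was -0.81 for Itga3 to Itgb1, 0.38 for Lama3 to Lamb3, 0.55 for Dst to Plec and 0.53 for Col17a1 to Itgb4. Within the higher numbers it was -0.36 for Lama3 to Lamb3. The cause was not tested. With the longest coding transcript as length the mean log2 ratio was 0.89 in place of 0.00 for Itga6 to Itgb4, 0.72 in place of 1.13 for Lama3 to Lamb3 and 0.30 in place of -0.29 for Dst to Plec, by the lengths alone. Offsets by GC content and by exon length were chosen after seeing the data. No paired analysis was possible because no title number occurs in both genotypes; the fit with title number range as a term, given above, groups samples by range and does not pair them.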
